A study of Mus musculus with 8 samples.

Results

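The genes described here are the WNT ligands, their receptors and helpers, their secreted inhibitors and the nuclear effectors of the canonical pathway, 52 genes in all, of 34790 gene names on the array. They were measured by 67 of the 55668 probes used. They were picked by gene name in the array's annotation, by a rule that uses no measured value. The members were, however, chosen with earlier results of these data known. They comprise 19 WNT ligands, 12 receptor genes (10 Frizzled genes with Lrp5 and Lrp6), 4 R-spondins, 9 secreted inhibitors, 5 nuclear effectors and 3 feedback genes. All samples came from dorsal skin of female C57 BL/6 mice, an inbred laboratory strain, with no transgene or mutant allele named in the labels. The sample titles name adipocytes. 1 sample came from skin that was only shaved, with the mouse aged 10 weeks, and is called the control or shaved skin below. The other 7 followed wax plucking, which pulls out the resting club hairs and starts a new growth phase. Samples of 12 h, 1 d, 2 d and 4 d came at an age of 10 weeks, those of 6 d and 10 d at 11 weeks, and that of 50 d at 17 weeks. The protocol has all follicles of the back in their resting phase at plucking, and states a younger age than these labels. The labels do not say how many mice went into a sample, and age cannot be told apart from time at 6 d, 10 d and 50 d. Each sample has 1 array, so differences from the control at one time are untested descriptions.

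WNT proteins are secreted, lipid-bearing signals that bind a Frizzled receptor together with Lrp5 or Lrp6. In the canonical branch, binding spares beta-catenin, the product of Ctnnb1, from destruction, and beta-catenin then works in the nucleus with a TCF or LEF factor. R-spondins strengthen the signal by protecting Frizzled receptors, while SFRP and WIF proteins bind the ligands and DKK proteins block the LRP co-receptors. In skin the pathway is known for its part in starting hair growth, in the hair germ and in the dermal papilla beneath it.

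By its label and protocol the material is isolated adipose cells, although the study's design mentions the dermis too. All 16 mature adipocyte markers were well above background on all 8 arrays, with a summed log2 level of 9.75 to 10.88. That sum was lowest at 4 d, 6 d and 10 d, at 10.04, 9.75 and 10.12, against 10.45 to 10.88 elsewhere. The list's median differences from the control there were -0.75, -0.78 and -0.64, and their part in the members' levels was not tested. All 10 skeletal muscle markers were also well above background on all 8 arrays, and hair and epidermal genes were detected throughout. Summed over a list of 21 hair shaft and inner root sheath genes, the log2 level was 4.01 in the control, 4.54 to 5.93 from 12 h to 2 d, 9.62 and 9.79 on the 4 d and 6 d arrays, and 8.82 and 4.83 on those of 10 d and 50 d. In such bulk tissue, fewer cells of a type and less RNA per cell cannot be told apart. All 8 arrays lay on 1 slide, with 72.9% to 81.1% of their spots well above background. For probes printed 10 times the SD between spots had a median of 0.063 to 0.096 in log2 units, and different probes of 1 gene varied in their change by a median of 0.153 to 0.178. Both errors are technical, since the spread between mice was not measured.

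Levels are given as log2 signal minus the 75th percentile of the array, so 0 is a fairly bright signal and not absence of RNA, and levels of different probes cannot be set against each other. By this measure 51 of the 52 genes were well above background on at least 1 array and 47 on all 8. Wnt3a, a canonical ligand, was not well above background on any. A gene was counted as higher or lower where its level lay 2-fold or more from that of shaved skin and the brighter of both arrays was well above background. By this rule 23 members were counted at some time, where 22.9% of the 30697 detected genes were. Of these 23, 20 were counted as higher (13.8% of all detected genes) and 4 as lower (10.4%), with Rspo2 in both groups. Unless a second probe is named, values and counts are those of the gene's brightest probe.

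Members were most often higher than the control at 4 d and 6 d. At 4 d, 17 of 50 measured members were at least 2-fold higher than the control, where 5.89% of all measured genes were, and 3 were lower, where 6.62% of all genes were. At 6 d, 12 of 50 were higher, against 4.24% of all genes, and 1 was lower, against 2.12%. With another background correction, normexp with an offset, 6 of the 12 stayed higher at 6 d, where 2.24% of all genes were, and 0 members were lower (1.24%). At 4 d, 15 of the 17 stayed higher with normexp (3.75% of all genes) and 2 of the 3 lower (3.1%). The median log2 difference of the measured members was 0.56 at 4 d and 0.25 at 6 d, beside -0.13 and -0.09 for all measured genes. Of the 51 detected members, 23 had their highest level on the 4 d array, where 14.7% of all detected genes had theirs.

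At the other times fewer members differed. At 12 h, 4 of 49 measured members were higher, against 3.9% of all genes, and 3 were lower, against 3.36%. At 1 d, the counts were 2 and 3 of 49, against 2.67% and 3.22% of all genes. At 2 d they were 3 and 2 of 49, against 2.56% and 3.57%. At 10 d, 4 of 49 were higher, against 3.76%, and none was lower, against 2.29%. At 50 d, 2 of 48 were higher, against 2.72%, and 1 was lower, against 4.41%. The members' medians at these times ran from -0.03 at 12 h to 0.18 at 2 d, and those of all genes from -0.05 to 0.02. All 7 comparisons share the single control array.

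**Figure D1:**
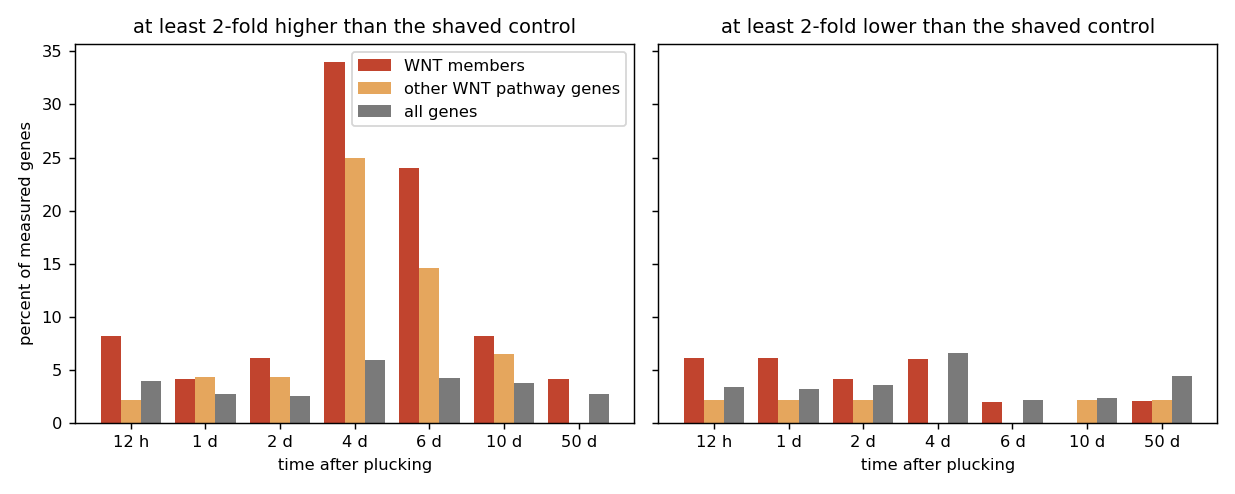
Percent of measured genes at least 2-fold higher (left) or lower (right) than the shaved control at each time after plucking, for the 52 WNT members, for 49 other WNT pathway genes and for all genes; each time is 1 array. The members' bars reach 34% at 4 d and 24% at 6 d on the left, and stay at or under 6.12% on the right.

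Among the ligands, 7 of 19 were counted at some time, a rule that 22.9% of all detected genes met. Wnt10a, an epithelial ligand of the early hair germ, stood at -1.39 without plucking, -0.03, 0.59 and -0.51 over the first 2 days (12 h, 1 d, 2 d), 1.55 by 4 d, 1.22 by 6 d, -0.71 by 10 d and -0.97 by 50 d. The control was its lowest array, and it was 7.67-fold higher than the control at 4 d and 3.95-fold at 1 d. Its relative Wnt10b, also a hair germ ligand, lay at -1.79 in shaved skin, -2.21 after 12 h, -1.94 after 1 d, -2.14 after 2 d, then -0.55 and -0.73 after 4 d and 6 d, -0.84 after 10 d and finally -1.84 after 50 d. Wnt10b thus fell into 2 separate sets of levels, with 4 d, 6 d and 10 d above all other arrays, and no early excess like that of Wnt10a. With normexp its differences at 4 d and 6 d were 0.97 and 0.75, short of 2-fold.

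Wnt3, another canonical ligand of skin epithelium, fell short of well above background on the control and 50 d arrays. Its probe read -7.12 and -5.38 on those arrays, -3.76, -3.19 and -4.39 on the 12 h, 1 d and 2 d arrays, and -2.64, -2.15 and -3.53 on those of 4 d, 6 d and 10 d. Taken against the lowest signal that counted as well above background in the control, it was at least 4.83-fold higher at 4 d, at least 6.82-fold at 6 d, at least 2.24-fold at 12 h, at least 3.30-fold at 1 d, at least 1.44-fold at 2 d and at least 2.62-fold at 10 d. These bounds are smaller than the differences between readings because the control value itself could not be measured. They also hold for the main background correction alone: with normexp Wnt3 was 1.09, 1.19 and 1.46 above the control at 1 d, 4 d and 6 d, and 0.59, 0.53 and 0.83 above it at 12 h, 2 d and 10 d, short of 2-fold. Epidermal genes were high from 12 h to 6 d. The interfollicular keratinocyte list had median differences of 2.25, 3.38 and 2.08 over the 12 h, 1 d and 2 d arrays, with 12, 13 and 12 of 14 genes at least 2-fold higher. Its medians were 1.90 and 0.97 over the 4 d and 6 d arrays, with 13 and 7 genes higher. At 10 d, where Wnt3 was still counted as higher, its median was -1.02, with 3 genes higher and 7 lower. The part of epidermal genes in the values of Wnt3 and Wnt10a was not tested.

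Wnt4 and Wnt6, both made by skin epithelium among other tissues, were counted at 4 d only. Wnt6 was between -1.27 and -1.01 on the control, 12 h, 1 d and 2 d arrays, at 0.48 on the 4 d array, and at -0.39, -1.10 and -0.56 at 6 d, 10 d and 50 d. Wnt4 ranged from 1.11 in the control to 2.28 at 4 d, where it was 2.26-fold higher, but the 1 d array at 2.08 and the 6 d array at 2.07 lay almost as high, and the rest were at 1.39 to 1.72. A second Wnt4 probe gave a smaller difference at 4 d, from -1.21 to -0.68.

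Wnt2 had a different course. It lay at -2.23 in the control, -2.63, -2.42 and -1.89 on the 12 h, 1 d and 2 d arrays, -2.53 and -1.11 on those of 4 d and 6 d, and -0.27 and -1.94 on the last pair, 10 d and 50 d. The 4 d array, where so many members were highest, was among its lowest, and it was 3.90-fold above the control at 10 d. At 6 d it was 2.17-fold above, but 0.82 on the log2 scale with normexp. Wnt8b was the 1 ligand counted as lower, from -3.08 in the control to -4.20 at 4 d and -4.46 at 6 d, with -4.03 to -3.19 on the other arrays. Both differences fell short of 2-fold with normexp, at -0.53 and -0.94, and against the 50 d array, at -0.17 and -0.43. A second Wnt8b probe, well above background on 7 arrays, differed from the control by -0.82 at 4 d and -0.27 at 6 d.

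By their brightest probe, the other 12 ligands were never 2-fold from the control. Second probes of Wnt1 and Wnt16 were, by 1.96 at 10 d and by -1.08 at 1 d, where the brightest differed by -0.24 and -0.08. Apart from the undetected Wnt3a, they were Wnt1, Wnt2b, Wnt5a, Wnt5b, Wnt7a, Wnt7b, Wnt8a, Wnt9a, Wnt9b, Wnt11 and Wnt16, each well above background on all 8 arrays, and their levels spanned from 0.50 (Wnt1) to 1.87 (Wnt5a) between the lowest and the highest array. Wnt5a, the best known non-canonical ligand and a product of the dermal papilla, stood at 1.15 without plucking, 0.17, 0.59 and 0.75 over the first 2 days (12 h, 1 d, 2 d), 2.04 by 4 d, 1.60 by 6 d, 1.19 by 10 d and 1.06 by 50 d. Its lowest array was thus 12 h and its highest 4 d, with the control in between.

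**Figure D2:**
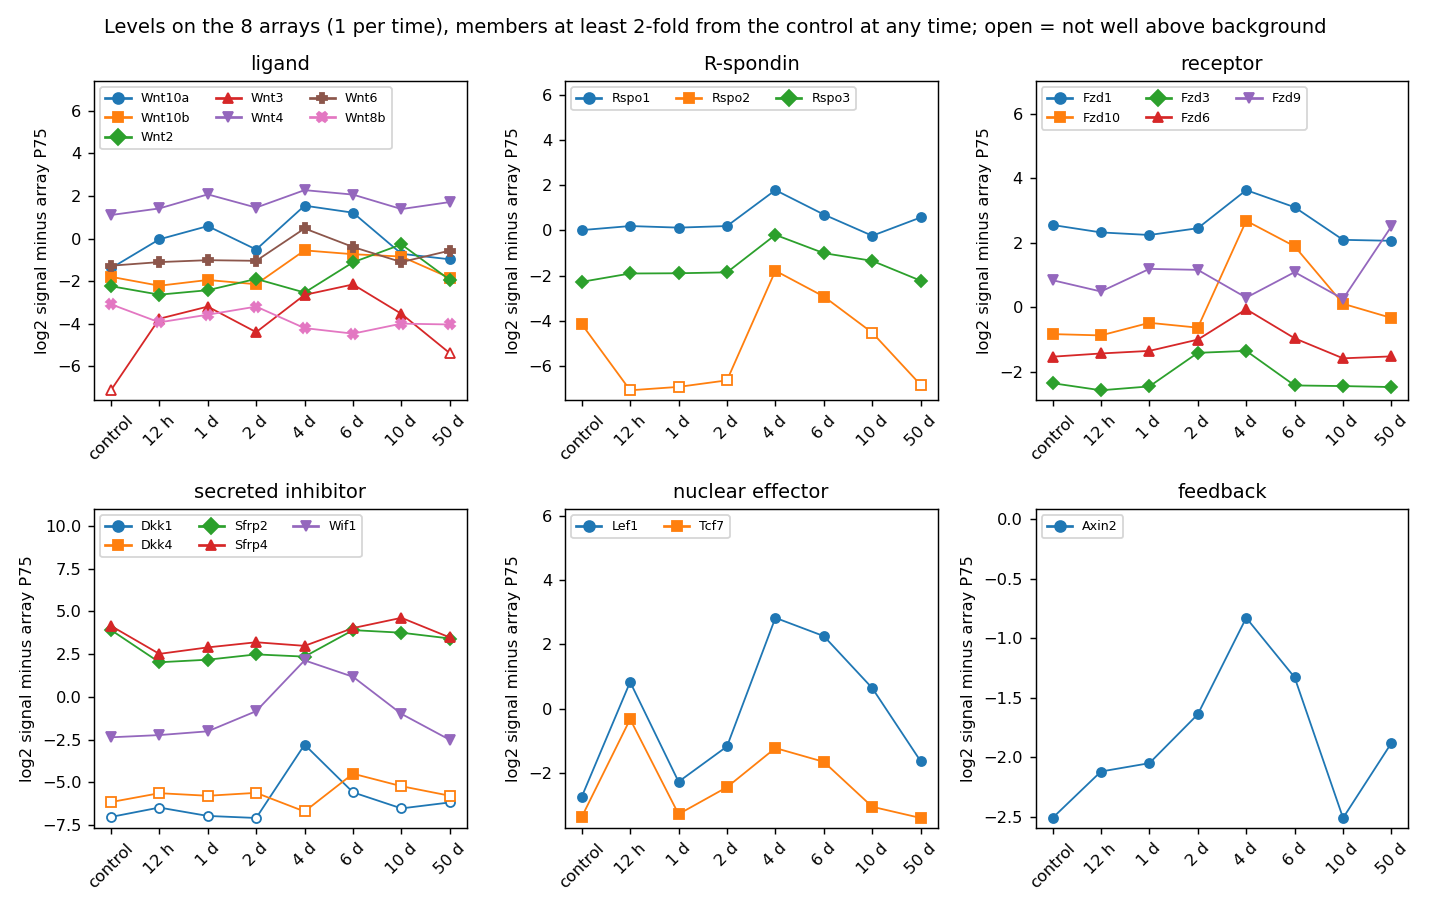
Level (log2 signal minus the array's 75th percentile) on each of the 8 arrays for the 23 members at least 2-fold from the control at any time, in panels by role; open symbols are not well above background, and lines only join the points. Most lines peak at 4 d, while Wnt2 peaks at 10 d, Fzd9 at 50 d and Tcf7 at 12 h.

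Of the 4 R-spondins, 3 were higher at 4 d and 2 at 6 d, where 5.89% and 4.24% of all measured genes were. Rspo3, a product of the dermal papilla, stood at -2.28 in shaved skin, -1.91 after 12 h, -1.90 after 1 d, -1.86 after 2 d, then -0.20 and -1.01 after 4 d and 6 d, -1.35 after 10 d and finally -2.23 after 50 d. Rspo1 was at 0.01 in the control, between 0.12 and 0.19 at 12 h, 1 d and 2 d, at 1.78 at 4 d, and at 0.70, -0.24 and 0.57 after that. Both thus lay near the control up to 2 d and were then 4.23-fold and 3.39-fold above the control. At 6 d Rspo3 was 2.40-fold above it, but 0.82 on the log2 scale with normexp.

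Rspo2 was detected on fewer arrays. It was well above background on 3 arrays, the control at -4.15, 4 d at -1.79 and 6 d at -2.93, and its probe read -7.08 to -4.53 on the other 5. At 4 d it was 5.15-fold higher than the control, and at 12 h, 1 d, 2 d and 50 d it was at least 2.82-fold, 3.00-fold, 1.86-fold and 2.00-fold lower. Referred to the 50 d array, the sign at 2 d turned, to 0.20, with both arrays not well above background. With normexp its differences were -0.75, -0.42 and -0.48 at 12 h, 1 d and 2 d, 1.21 and 0.23 on the 4 d and 6 d arrays, and -0.18 by 50 d, so that 4 d alone was 2-fold from the control. Rspo4 was never 2-fold from the control, within -3.74 to -3.11.

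Markers of the hair matrix and germ were high at the same times. The hair matrix and germ list had a median difference from the control of 3.00 at 4 d and 1.96 at 6 d, with 9 and 8 of 10 genes at least 2-fold higher, and its summed level was 5.41 at 4 d and 4.20 at 6 d, against 2.51 to 3.29 on the other 6 arrays. Of 13 dermal papilla markers, 6 were at least 2-fold higher at 4 d and 2 lower (Fgf10 at -1.34 and Prom1 at -1.16), with a median of 0.46. At 6 d, 2 were higher and 1 lower, with a median of 0.03, and Rspo3 itself is one of the list. All 15 genes of a G2/M list were higher at 4 d, with a median of 2.05. The part of these cells and of dividing cells in the members' levels was not tested.

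Of the 12 receptors, 4 were higher at 4 d and 1 at 6 d, where 5.89% and 4.24% of all measured genes were. Fzd10 stood at -0.83 in the control, -0.87, -0.48 and -0.63 on the 12 h, 1 d and 2 d arrays, 2.68 and 1.89 on those of 4 d and 6 d, and 0.11 and -0.33 on the last pair, 10 d and 50 d. The 4 d, 6 d and 10 d arrays were above all the others, and the gene was 11.4-fold above the control at 4 d. Fzd6, a receptor known for planar polarity of hair follicles, lay between -1.58 and -0.96 on 7 arrays and at -0.06 at 4 d, where it was 2.77-fold higher than the control. Fzd1 ranged from 2.06 at 50 d to 3.63 at 4 d, with 3.10 at 6 d, 2.55 in the control and 2.09 to 2.45 on the rest, and its difference at 4 d was 1.09.

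Fzd3, also a polarity receptor, was high on a pair of arrays, -1.41 at 2 d and -1.35 at 4 d, against -2.57 to -2.35 elsewhere. Those levels at 2 d and 4 d differed by 0.06, less than the spread between probes. With normexp its difference at 4 d was 0.72, short of 2-fold. Fzd9 was the exception in time. It stood at 0.84 in the control, between 0.26 and 1.19 from 12 h to 10 d, and at 2.51 at 50 d, which was 3.18-fold above the control. The skeletal muscle list, detected throughout, had a median difference of 0.78 at 50 d, with 1 of 10 genes higher, and of -0.21 to 0.09 before, and its part in the Fzd9 value was not tested.

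The co-receptors Lrp5 and Lrp6 varied little, with a span over the 8 arrays of 0.35 and 0.37. Fzd2, Fzd4, Fzd5, Fzd7 and Fzd8 were not 2-fold from the control at any time, with spans of 0.56 (Fzd5) to 1.39 (Fzd2). Fzd2 was highest at 4 d, at 2.58 against 1.76 in the control.

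Secreted inhibitors stood above the control in some cases and below it in others. Wif1, which binds WNT ligands outside the cell, stood at -2.37 without plucking, -2.24, -2.02 and -0.84 over the first 2 days (12 h, 1 d, 2 d), 2.13 by 4 d, 1.17 by 6 d, -1.0 by 10 d and -2.52 by 50 d. It was already 2.91-fold higher than the control at 2 d, then 22.8-fold at 4 d, 11.7-fold at 6 d and 2.59-fold at 10 d, and back at the control level by 50 d. Dkk1, which binds the LRP co-receptors, was well above background on 1 array only, at -2.80 at 4 d against probe readings of -7.09 to -5.59 elsewhere, and was at least 4.35-fold higher there than in the control, with a difference of 1.14 under normexp. Dkk4, a WNT target in skin placodes, was above background at 6 d only, at -4.50 against readings of -6.71 to -5.23 elsewhere. It was at least 1.34-fold above the control there, and with normexp background correction its difference turned to -0.04.

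Sfrp2 and Sfrp4, ligand-binding inhibitors made by fibroblasts and fat stroma, were lower early. Sfrp2 stood at 3.91 in shaved skin, 2.02 after 12 h, 2.17 after 1 d, 2.48 after 2 d, then 2.35 and 3.90 after 4 d and 6 d, 3.75 after 10 d and finally 3.41 after 50 d. Sfrp4 was at 4.15 in the control, 2.51, 2.89 and 3.19 on the 12 h, 1 d and 2 d arrays, 2.98 and 4.02 on those of 4 d and 6 d, and 4.62 and 3.47 on the last pair, 10 d and 50 d. On both, the 4 arrays from 12 h to 4 d lay below the other 4, by 3.69-fold and 3.12-fold from the control at 12 h. Referred to the 50 d array, Sfrp2 differed by -1.39, -1.24, -0.93 and -1.06 at 12 h, 1 d, 2 d and 4 d. Sfrp4 differed by -0.96, -0.57 and -0.49 at 12 h, 1 d and 4 d, short of 2-fold. The fibroblast marker list had median differences of -0.65 to -0.41 on the 4 arrays from 12 h to 4 d, and of -0.30, -0.20 and -0.62 on the later ones. The macrophage list, with 11 of 11 markers above background on every array, had medians of -0.77, -0.79, -1.53 and -1.62 over the 12 h, 1 d, 2 d and 4 d arrays, with 4, 4, 6 and 10 genes at least 2-fold lower. Its medians were -0.45 and -0.38 over the 6 d and 10 d arrays and -1.11 over that of 50 d, where 7 were lower. The part of fibroblast or macrophage content in the Sfrp2 and Sfrp4 levels was not tested.

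Sfrp1, Sfrp5, Dkk2 and Dkk3 were never 2-fold from the control. Dkk2 spanned 0.33 over the 8 arrays and Sfrp1 1.31, from -1.07 at 12 h to 0.24 at 4 d. Dkk3, a divergent member of the DKK family, was highest at 2 d, at 2.21 against 1.26 in the control. Sfrp5, an inhibitor of fat tissue, ranged from 2.35 at 4 d to 3.47 at 50 d.

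**Figure D3:**
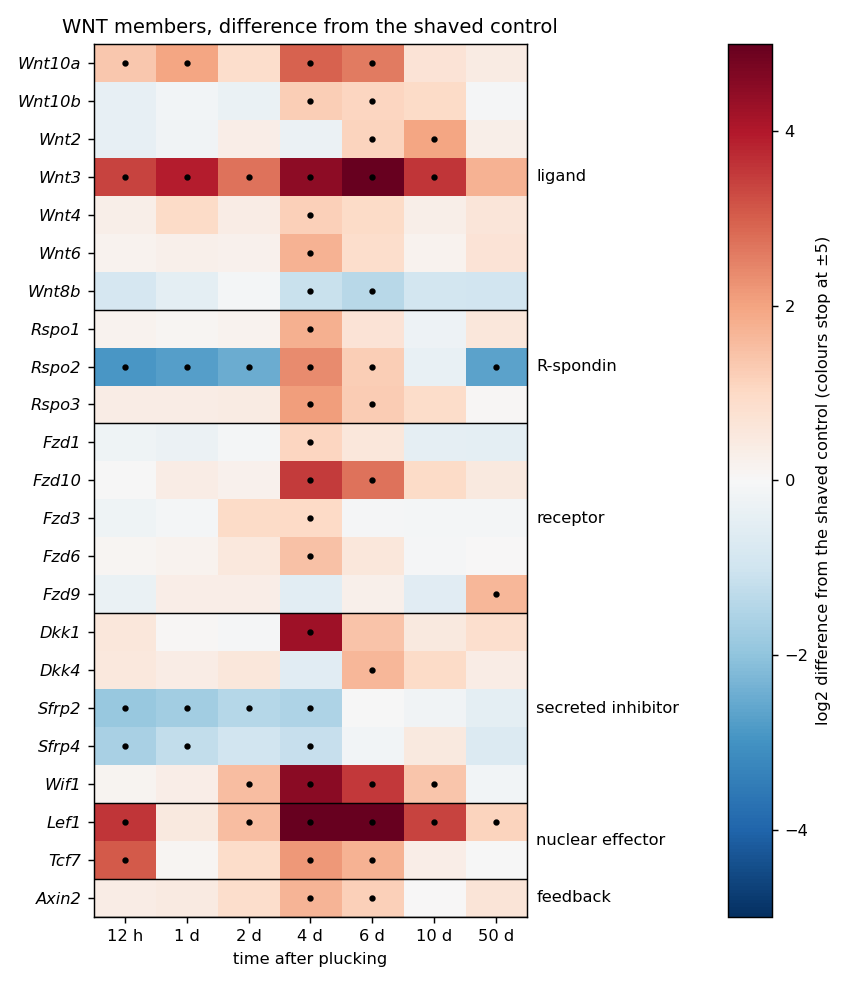
Log2 difference from the shaved control at each time for the 23 members counted at any time, ordered by role; red is higher, blue is lower, and a dot marks a difference of at least 2-fold with the brighter array well above background. The 4 d and 6 d columns are mostly red, and the Sfrp2 and Sfrp4 rows are blue from 12 h to 4 d; dim arrays are drawn at their own value, so Wnt3, Rspo2, Dkk1 and Dkk4 look larger than their bounds.

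Lef1, a DNA-binding partner of beta-catenin in the hair matrix and germ, had the largest difference of any member. It stood at -2.75 without plucking, 0.83, -2.28 and -1.18 over the first 2 days (12 h, 1 d, 2 d), 2.83 by 4 d, 2.26 by 6 d, 0.64 by 10 d and -1.64 by 50 d. It was 47.8-fold higher than the control at 4 d, 32.2-fold at 6 d and 12.0-fold at 12 h, but only 0.47 above it on the log2 scale at 1 d. With normexp it was 4.74, 4.23, 2.88 and 0.74 above the control at 4 d, 6 d, 12 h and 50 d, the last of these 2.16-fold by the main correction but short of 2-fold here. Its second probe gave differences of 4.98 at 4 d, 3.03 at 12 h and -0.01 at 1 d.

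Tcf7, a related factor and a standard T cell gene, shared the 12 h value. It stood at -3.38 in shaved skin, -0.33 after 12 h, -3.29 after 1 d, -2.45 after 2 d, then -1.23 and -1.66 after 4 d and 6 d, -3.06 after 10 d and finally -3.41 after 50 d. Thus 12 h was its highest array, 8.31-fold above the control, while at 1 d it was at the control level. With normexp it was 2.20 and 1.38 above the control at 12 h and 4 d. Lef1 is made by T cells as well. Lymphocyte markers were high with both genes at 12 h: 11 of 14 were at least 2-fold higher than the control there, with a median difference of 3.06, and their summed level was 5.89 against 3.21 to 3.79 on the other 7 arrays. The T cell receptor component Cd3d was at 1.59 at 12 h and between -3.76 and -2.37 elsewhere. Its difference from the control at 12 h was 4.47, beside 5.71 and 4.22 for the B cell genes Ms4a1 and Cd79a. The markers not counted as higher there were Cd3e, Cd2 and Cd4, also made by T cells, at 0.76, 0.46 and -0.06. At 4 d, where Lef1 and Tcf7 were 5.58 and 2.15 above the control, none of the 14 lymphocyte markers was 2-fold higher and 3 were lower. The lymphocyte list was added after the members' values were seen. The part of lymphocytes in the values of Lef1 and Tcf7 was not tested at either time.

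The remaining effectors varied less. Ctnnb1, which encodes beta-catenin, was highest at 4 d, at 4.35 against 3.48 in the control and 3.33 to 4.04 elsewhere, a difference short of 2-fold. Tcf7l1 and Tcf7l2, TCF factors that were detected on all arrays, spanned 0.62 and 0.38.

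Feedback genes are induced by the pathway and dampen it. Axin2, the textbook target, stood at -2.51 in the control, -2.12, -2.05 and -1.64 on the 12 h, 1 d and 2 d arrays, -0.83 and -1.33 on those of 4 d and 6 d, and -2.51 and -1.88 on the last pair, 10 d and 50 d. It was 3.21-fold above the control at 4 d and 2.27-fold at 6 d, and at 10 d it was level with the control. With normexp it was 1.27 and 0.78 above the control at 4 d and 6 d, the latter short of 2-fold. A second Axin2 probe gave 1.16 at 4 d and 0.51 at 6 d, where the brightest gave 1.68 and 1.18. Nkd1, a cytoplasmic WNT antagonist, was 0.64 and 0.66 above the control at 4 d and 6 d.

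No second probe opposed the sign of a counted difference. For Nkd2 and Fzd5, which were not counted, the result hung on the probe, as was noticed after their values were seen. The brightest Nkd2 probe, on chromosome 13 at 73956776 to 73956835 of mm9, spanned 0.80 over the 8 arrays. A second, dimmer one at 73957581 to 73957640, also well above background on all arrays, stood at -3.48 without plucking, -3.13, -3.17 and -2.60 over the first 2 days (12 h, 1 d, 2 d), 0.53 by 4 d, 0.09 by 6 d, -1.59 by 10 d and -3.03 by 50 d. Both carry the same transcript accession, yet at 4 d one differed from the control by 4.01 and the other by -0.02. Fzd5 had 2 probes on chromosome 1, at 64781972 to 64782030 and 64779479 to 64779538, which differed from the control at 4 d by -0.05 and 1.88. Exon and UTR positions on mm9 were not used here, so where in the transcript each probe lies is not given.

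**Figure D4:**
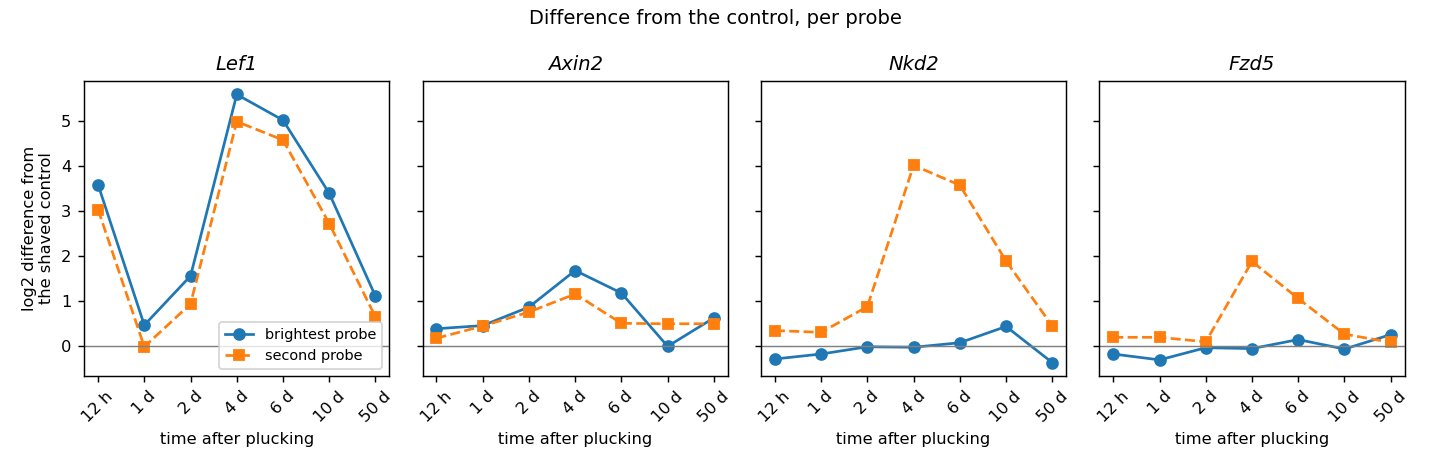
Log2 difference from the shaved control at each time for both probes of Lef1, Axin2, Nkd2 and Fzd5 (circles: the brightest probe, which stands for the gene; squares: the second). At 4 d the probes of Lef1 lie at 5.58 and 4.98 and those of Axin2 at 1.68 and 1.16, whereas those of Nkd2 lie at -0.02 and 4.01.

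Other genes of the pathway, from a list of 51 of which 49 were found on the array, also stood high at 4 d. Of 48 measured, 12 were at least 2-fold higher at 4 d and 7 at 6 d, where 5.89% and 4.24% of all genes were. None was lower at either time, where 6.62% and 2.12% of all genes were. Their medians were 0.43 and 0.31, beside -0.13 and -0.09 for all genes. Kremen2, a DKK co-receptor, differed by 3.72 at 4 d and 2.67 at 6 d. The WNT target Sp5, whose probe was not well above background in shaved skin, was at least 4.77-fold higher at 4 d, and it is among the 6 named by its dim reading there. Celsr1, a planar polarity cadherin, differed by 3.12 and 2.71, and Msx2, a hair matrix transcription factor, by 2.73 and 2.36. The R-spondin receptor Lgr5 differed by 2.72 at 4 d, by 1.5 at 6 d and by -1.32 at 10 d. Rnf43, a ubiquitin ligase that removes Frizzled, differed by 2.65 at 4 d and 1.92 at 6 d. Msx2 and Lgr5 are also in the hair lists used above. Frzb, an SFRP relative, was lower at 12 h, 1 d and 2 d, by -1.30, -1.82 and -1.15, as Sfrp2 was.

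Of the 10 members higher at both 4 d and 6 d, 7 had a promoter in the RefSeq table (build GRCm38.p6), which covered 36 of the 52 members. The 250 bases before each start were searched on both strands for CTTTGAA and CTTTGAT, forms of the core that TCF and LEF factors bind, which share all but their last letter. None of the 11 promoters of these 7 genes held either, where 7.48% of 32851 promoters in the table did, and 3 of 45 member promoters did (Wnt5b, Wnt11 and Dkk1). No match says only that these letters are absent from this window. Shown 5′ to 3′ are the first listed starts of 4 of these genes that were high at 4 d, Lef1 (chr3:131110047-131110296, plus strand), Wif1 (chr10:121033754-121034003, plus strand), Fzd10 (chr5:128600856-128601105, plus strand) and Wnt3 (chr11:103773925-103774174, plus strand). Wnt3 is known only by its bound, and no rank is given to it. Dkk1 (chr19:30549497-30549746, minus strand) is added because it was high at 4 d and holds a match, in capitals, at position -117 relative to the start.
Lef1: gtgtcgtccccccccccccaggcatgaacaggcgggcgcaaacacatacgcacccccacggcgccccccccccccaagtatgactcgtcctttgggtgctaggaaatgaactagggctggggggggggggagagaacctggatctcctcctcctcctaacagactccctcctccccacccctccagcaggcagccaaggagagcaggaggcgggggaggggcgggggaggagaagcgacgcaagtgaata
Wif1: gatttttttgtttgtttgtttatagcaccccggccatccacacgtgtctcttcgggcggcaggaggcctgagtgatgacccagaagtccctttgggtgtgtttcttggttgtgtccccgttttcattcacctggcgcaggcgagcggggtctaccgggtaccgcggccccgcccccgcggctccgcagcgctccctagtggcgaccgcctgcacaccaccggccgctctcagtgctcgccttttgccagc
Fzd10: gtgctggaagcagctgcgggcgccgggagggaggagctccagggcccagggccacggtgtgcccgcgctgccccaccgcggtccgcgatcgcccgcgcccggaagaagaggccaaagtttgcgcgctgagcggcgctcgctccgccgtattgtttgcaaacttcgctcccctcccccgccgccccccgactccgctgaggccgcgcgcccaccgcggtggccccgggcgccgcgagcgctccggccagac
Wnt3: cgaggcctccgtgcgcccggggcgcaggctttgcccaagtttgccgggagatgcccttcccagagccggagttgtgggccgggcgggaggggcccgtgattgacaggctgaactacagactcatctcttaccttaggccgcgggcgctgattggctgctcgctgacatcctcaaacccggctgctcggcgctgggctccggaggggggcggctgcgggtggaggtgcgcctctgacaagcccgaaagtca
Dkk1: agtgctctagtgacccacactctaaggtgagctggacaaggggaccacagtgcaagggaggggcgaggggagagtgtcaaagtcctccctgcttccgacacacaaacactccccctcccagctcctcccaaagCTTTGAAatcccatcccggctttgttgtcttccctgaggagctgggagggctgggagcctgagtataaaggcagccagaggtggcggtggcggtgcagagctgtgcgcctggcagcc

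The only comparison with more than 1 array a side set the late arrays (4 d, 6 d and 10 d) against the early ones (12 h, 1 d and 2 d). The arrays of a window are different times, so their spread holds change between times as well as between mice. With limma over 28806 genes, none of 48 tested members passed an adjusted p of 0.05, and neither did any other gene (0% of all genes). At an unadjusted p under 0.05, 9 members were higher late, where 3.72% of all genes were, and 4 were lower, where 8.2% were. Their median difference was 0.21, against -0.06 for all genes.

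Wnt10b led the members. It stood at -2.10 ± 0.14 (SD, n = 3 arrays) early and -0.71 ± 0.15 late, a difference of 1.39 (95% interval 1.05 to 1.73; limma adjusted p = 0.104), with all 3 late arrays above all early ones. Fzd10 differed by 2.22 (0.74 to 3.69; limma adjusted p = 0.281), Wnt5a by 1.11 (0.49 to 1.73; adjusted p = 0.236) and Rspo3 by 1.03 (0.34 to 1.73; adjusted p = 0.286), again without overlap. Lef1 and Wif1 differed by more, 2.79 and 2.47, but with wide intervals of 0.65 to 4.92 and 0.52 to 4.42, and their windows overlapped. Wnt11, Sfrp2 and Sfrp4 were the other members higher late at an unadjusted p under 0.05, by 0.58, 1.11 and 1.01. Wnt7b, an epidermal ligand, was the lowest late relative to early, by -0.91 (-1.42 to -0.40; limma adjusted p = 0.234), beside Wnt8b at -0.65, Wnt9a at -0.46 and Wnt8a at -0.39.

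In all, 6 members had every late array above every early one, where 4.72% of all genes did, and 5 had every late array below, where 13.7% did. Leaving out the 10 d array let Fzd10 (2.94, limma adjusted p = 0.0358) and Wnt10b (1.46, adjusted p = 0.0364) pass, among 243 genes in all. Without the 4 d array, Sfrp2 (1.60) and Wnt10b (1.31) passed, each at a limma adjusted p of 0.0483, among 88 genes.

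**Figure D5:**
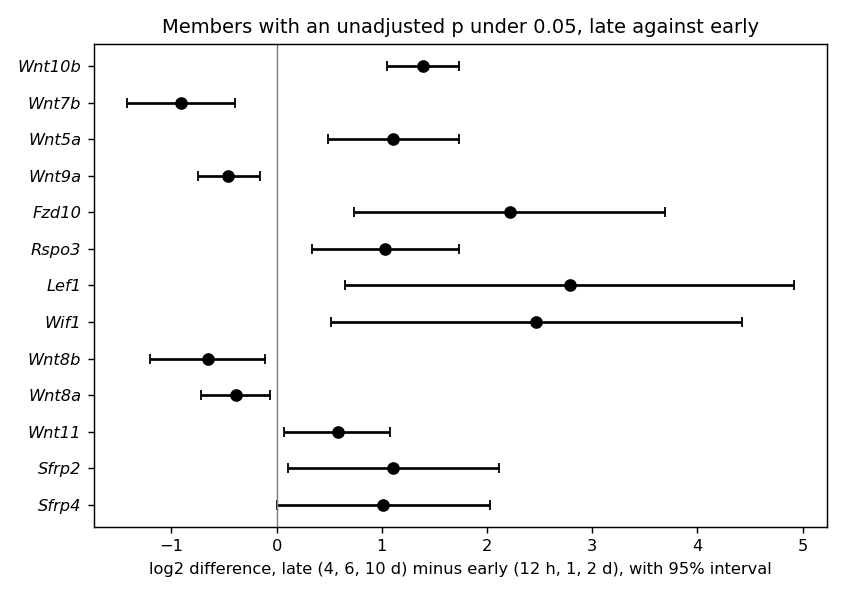
Log2 difference between the late (4 d, 6 d, 10 d) and early (12 h, 1 d, 2 d) arrays with its 95% interval from limma, for the 13 members with an unadjusted p under 0.05. Points right of 0 are higher late; none passed after adjustment over all genes, and the interval is narrow for genes such as Wnt10b whose levels varied little within a window.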

How the data were processed

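Spot intensity values were deposited as Agilent Feature Extraction 10.5.1.1 wrote them, per the file headers with background subtraction and detrending inside each array and no scaling across arrays. The headers also mark the 10 d array's spike-in slope as out of range. After control and outlier spots were removed (13 probes lost all their spots on some array), log2 values were averaged per probe and each array's 75th percentile was subtracted. A gene took the values of its brightest probe, and was well above background if any of its probes was. Where the dimmer array fell short of that, the fold became a bound, against the higher of the probe's own signal and that array's dimmest signal still well above background. Accessions led 66 of the 67 member probes to the same symbol in a RefSeq table of another assembly, which served for names and promoters only. Windows were compared with limma 3.58.1 (lmFit, eBayes, R 4.3.3) by a two-sided test, Benjamini-Hochberg adjusted over all genes well above background on at least 3 of the 6 arrays. On simulated data this step found 20 of 100 planted log2 changes of 1 and 92 of 100 of 2, with 3 false calls. Most 2-fold changes of that kind would thus be missed. The 92 of 100 is no guide to members whose level changed within a window. Lef1, Wif1 and Fzd10 differed by 2.79, 2.47 and 2.22, with SDs of 1.13, 1.61 and 1.32 among the late arrays. In the main fit none of them passed, at limma adjusted p of 0.321, 0.33 and 0.281. The rest was done in Python 3.11.15. The number of arrays limits the precision.

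Members counted at any time are named with their levels and the others with their span; other pathway genes are named by the 6 largest differences among those counted at 4 d or 6 d, and Frzb was added after its values were seen. Members and lists were chosen with earlier results of these data known, and the lymphocyte list was added after the members' values were seen. Alternatives tried were normexp background correction (offset 50), quantile normalization, another centring (on probes detected throughout), no filter on dim probes, averaging a gene's probes, taking 50 d for the reference, and for the windows a trended robust eBayes and leaving out each array.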

Additional observations from a re-analysis of the deposited data

Results flagged for a closer look

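Rspo2, an R-spondin that strengthens WNT signals, differed from the shaved control in opposite directions at different times, by -2.92 on the log2 scale at 12 h and by 2.36 at 4 d. At 12 h its probe was not well above background, so the first value is bounded only as at least 2.82-fold lower. With normexp background correction the 12 h difference was -0.75, short of 2-fold, and that at 4 d was 1.21. With the 50 d array in place of the control they were -0.24 and 5.05. The probe was not well above background on the 50 d array either. So -0.24 compares dim readings only and cannot decide on a 2-fold difference, and 5.05 has a reference that was not measured. Each time is 1 array, and the difference between the times was not tested.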

How the results depend on the processing

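No paired analysis was possible because the labels give every group the same single replicate number. Of 14 counts of members, most stayed within 1.5 times their value. With normexp background correction the members higher at 6 d went from 12 to 6, those higher at 50 d from 2 to 1, and those lower at 2 d, 6 d and 50 d to 1, 0 and 0. With the mean over probes, 0 members were lower at 6 d and 1 was higher at 50 d. With the 50 d array as the reference, 1 member was lower at 2 d and 1 at 10 d. Which members were lower changed there too. Of those lower than the control, 1 of 3 stayed lower at each of 12 h, 1 d and 4 d. At 2 d 0 of 2 did, and at 6 d 0 of 1. Of those higher than the control, 16 of 17 stayed higher at 4 d and 10 of 12 at 6 d. With dim members at their bound, an alternative chosen after seeing the data, 1 was lower at 2 d. In the windows the count past the adjusted threshold was 0 under all other models and ran from 0 to 2 when 1 array was left out. Of 57 single values, 45 moved by more than 0.178 with normexp and 1 turned, Dkk4 at 6 d to -0.04; with the 50 d reference 40 of 54 moved and 1 turned, Rspo2 at 2 d to 0.20. The cause was not tested. With quantile normalization 4 moved and with centring none. Under every scaling, background correction and probe rule tried, 23 to 27 of 51 detected members were highest at 4 d. Of all detected genes, 13.4% to 17.5% were highest there under the same settings. Where the dimmer array was not well above background, as for Dkk1, Dkk4, Wnt3 and most times of Rspo2, the fold is a bound only.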

Other observations

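Second probes of other members gave values that no comparison above uses. The brightest Wnt1 probe lay within 0.33 to 0.83 on all 8 arrays, whereas a second, well above background on 7 of them, stood at -2.53 at 10 d against -5.08 to -4.14 elsewhere. A second Fzd2 probe was 0.83 above the control at 4 d, as the brightest was, but 0.93 above it at 6 d, where the brightest was at -0.10.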
